A study of Rattus norvegicus with 7 samples.

Results

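The genes examined here encode glycosyltransferases and carbohydrate sulfotransferases, the Golgi enzymes that build the sugar chains of mucus and of other glycoproteins and glycolipids. They were taken from the deposited gene table by symbol, as those beginning with B3gnt, B3galt, B4galt, B4galnt, Galnt, Fut, St3gal, St6gal, St8sia, Gcnt, Chst, Mgat, C1galt1, A4galt, A3galt2 or Gal3st, which gave 93 of 16468 genes. The RNA came from crypts, the pits of the colon lining, of Sprague Dawley rats at 14 weeks of age, with no treatment named. Crypts of 7 rats were pooled for each of 2 libraries, 1 from the proximal and 1 from the distal end of the colon. The differences below therefore have no replicate check, and they compare these libraries only.

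Mucins are proteins with long stretches of serine and threonine that carry O-linked sugar chains. A polypeptide GalNAc transferase adds the first sugar, N-acetylgalactosamine (GalNAc), and other enzymes then make a core with galactose or N-acetylglucosamine (GlcNAc), branch it, extend it, and cap it with fucose, sialic acid or sulfate. Colonic mucus is known for sulfated and sialylated chains, and the mix of caps is known to vary along the gut. Many of the enzymes also act on N-linked chains, glycolipids or proteoglycans.

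Values were read as FPKM, which scales fragments to the length of the transcript and the size of the library. Comparisons of level between genes rest on that reading. Of the 93 genes, 64 were measured, meaning at least 1 FPKM in 1 library. The other 29 had at most 0.750 FPKM in either library, and 8 of them were listed at 0 in both. Differences are given as the log2 ratio of distal over proximal on the FPKM + 1 scale, which makes differences of low genes look smaller. A gene is said to lie on the distal or the proximal side where it was measured and this ratio was at least 1 in size, which is 2-fold. Paired values are given with the proximal one first. A plain fold is printed only where the lower value was at least 0.426 FPKM, about 3 reads for a gene of olfactory receptor length. In bulk RNA, fewer cells of a type and less RNA per cell cannot be told apart.

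Every class of enzymes held at least 1 gene that was at least 2-fold apart except the class that starts the chains, with 0 of 10 measured. Over all measured genes the share was 7.62%, so 0 of 10 does not set that class apart from the rest of the genes. Fucosylation, GalNAc capping and N-glycan branching each held only 1 such gene. Of the 64 measured genes, 9 (14.1%) lay on the distal and 11 (17.2%) on the proximal side. Among all 9847 measured genes of the table these shares were 3.71% and 3.91%, together 7.62%. With the upper quartiles of the libraries set equal, the 365 and 385 genes behind these shares became 284 and 464, and the members 8 and 12. The authors' deposited table called 10 of the 64 higher in the distal and 9 higher in the proximal library, against 2.73% and 2.69% of the 10099 genes it tested, together 5.43%. Its 19 calls covered 18 of the 20 genes at least 2-fold apart, leaving out St3gal6 and Chst1, and added B3gnt5. With a pseudocount of 5 FPKM in place of 1, 6 and 5 genes lay on the distal and proximal side, against 1.99% and 1.28% of all measured genes, and galactose addition, GalNAc capping and N-glycan branching then held none. At 1.5-fold the counts were 18 and 13 of the 64, against 9.19% and 8.12% of all measured genes, and at 4-fold they were 4 and 1, against 0.884% and 0.751%. The larger share at least 2-fold apart was seen at each level, with 4 of 9 genes whose higher value was 1 to 5 FPKM (11.6% among all genes of that level), 6 of 22 at 5 to 20 FPKM (6.55%) and 10 of 33 from 20 FPKM (6.71%). The median log2 ratio of the 64 genes was 0.19, beside 0.09 over all measured genes. The median size of the ratio without its sign was 0.53, beside 0.24.

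**Figure D1:**
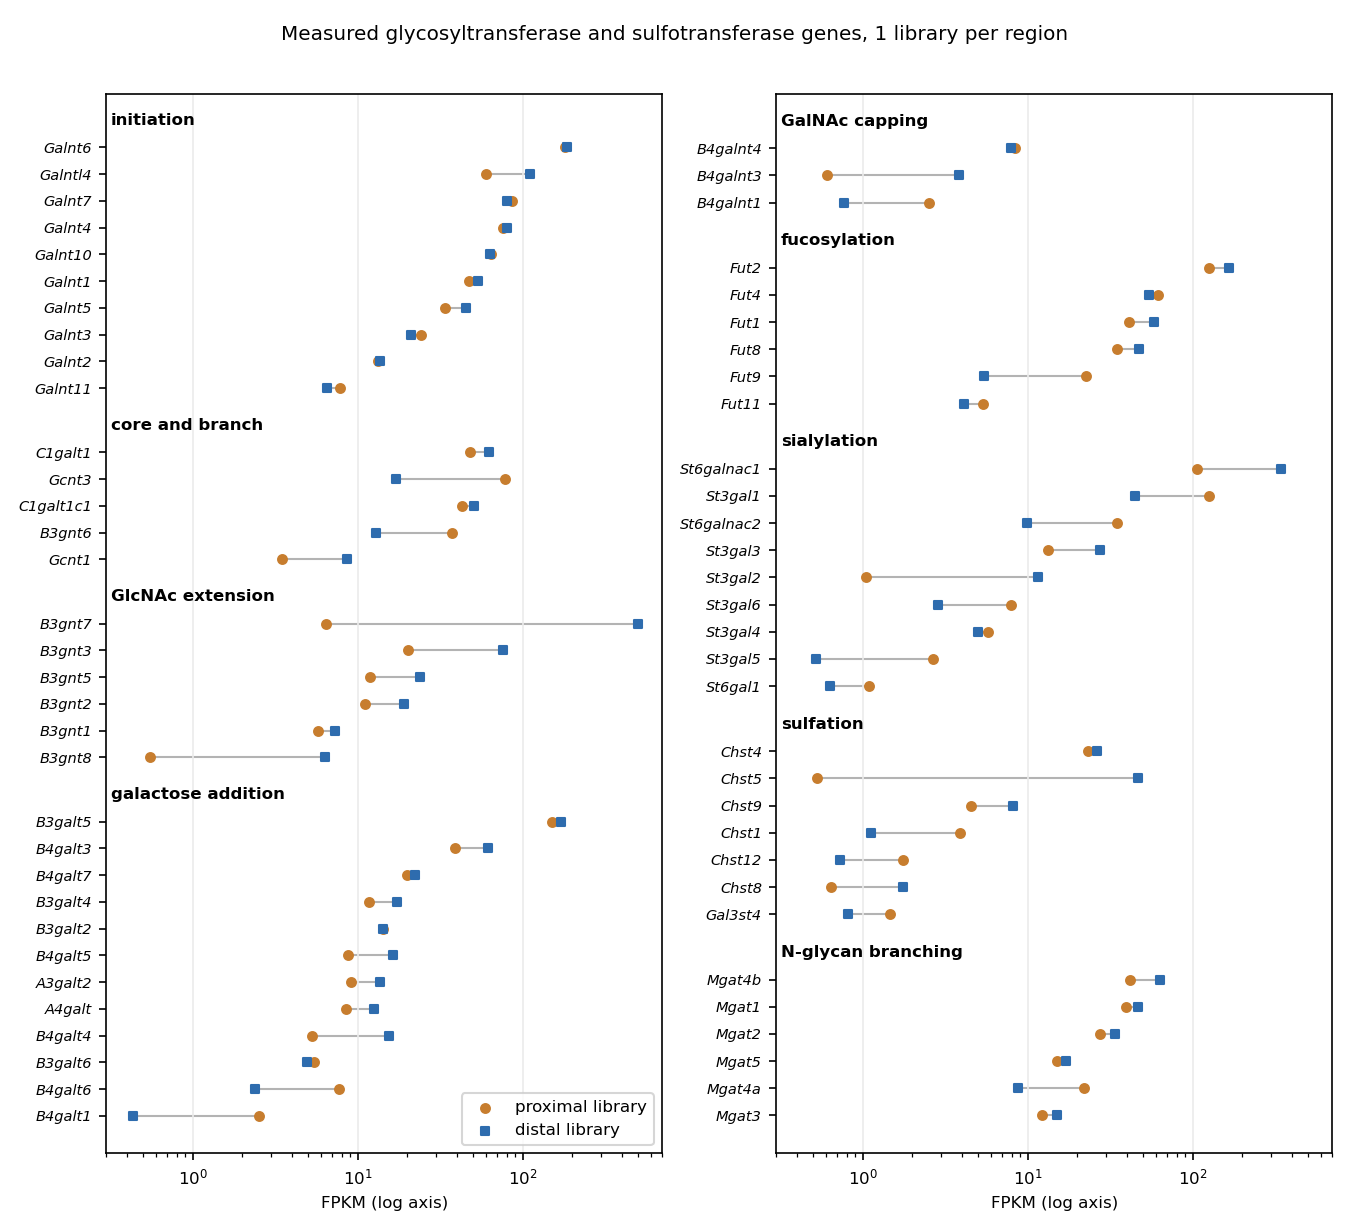
FPKM of the 64 measured genes in the proximal (circles) and distal (squares) library on a log axis, grouped by reaction class and ordered by mean level. The longest lines belong to B3gnt7 (6.43 and 499 FPKM) and Chst5 (0.530 and 46.5 FPKM), while the initiation genes at the top left lie close together.

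Promoter sequences are shown for 4 genes on which the results turn. B3gnt7 and Chst5 had the largest distal folds, St6galnac1 was the sialyltransferase with the highest mean level, and Gcnt3 had the largest log2 ratio on the proximal side. The sequences are from RefSeq on the GRCr8 build, 250 bases before to 50 bases after the annotated start, and each lies on its gene's own strand. They lie at chr9:94403947-94404246 on the plus strand for B3gnt7, and on the minus strand at chr19:56790223-56790522 for Chst5, chr10:102481827-102482126 for St6galnac1 and chr8:79573508-79573807 for Gcnt3. Capitals mark matches, on either strand, to the short motifs described after the sequences.
B3gnt7: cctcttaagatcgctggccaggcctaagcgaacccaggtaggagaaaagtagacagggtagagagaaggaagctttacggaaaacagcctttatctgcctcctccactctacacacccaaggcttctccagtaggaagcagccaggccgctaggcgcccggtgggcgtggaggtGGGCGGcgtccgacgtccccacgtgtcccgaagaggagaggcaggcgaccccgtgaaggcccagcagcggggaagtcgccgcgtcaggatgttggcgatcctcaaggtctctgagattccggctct
Chst5: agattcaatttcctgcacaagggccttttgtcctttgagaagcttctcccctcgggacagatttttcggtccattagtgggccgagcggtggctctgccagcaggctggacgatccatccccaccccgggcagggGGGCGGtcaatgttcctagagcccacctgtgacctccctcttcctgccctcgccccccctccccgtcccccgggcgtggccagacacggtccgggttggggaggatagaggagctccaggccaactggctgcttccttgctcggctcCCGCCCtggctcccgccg
St6galnac1: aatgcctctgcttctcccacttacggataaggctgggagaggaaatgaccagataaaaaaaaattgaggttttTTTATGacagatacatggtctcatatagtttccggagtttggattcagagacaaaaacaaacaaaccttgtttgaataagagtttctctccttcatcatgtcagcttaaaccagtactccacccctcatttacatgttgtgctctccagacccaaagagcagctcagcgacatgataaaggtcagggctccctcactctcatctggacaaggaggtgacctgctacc
Gcnt3: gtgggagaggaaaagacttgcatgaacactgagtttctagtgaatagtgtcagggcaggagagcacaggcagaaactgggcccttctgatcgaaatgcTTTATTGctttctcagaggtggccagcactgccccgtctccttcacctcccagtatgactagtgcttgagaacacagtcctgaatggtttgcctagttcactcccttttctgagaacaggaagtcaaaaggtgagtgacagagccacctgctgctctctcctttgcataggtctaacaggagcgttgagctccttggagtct

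The motifs searched were CATAAA, a core read by Cdx factors, CAATAAA, a core read by posterior Hox factors, GGGCGG, the GC box, and TATAAA, the TATA box. They were chosen with the values known, and no 2 of the capitalised matches in these sequences overlap. B3gnt7 and Chst5 hold GC boxes and neither Cdx, Hox nor TATA motif. St6galnac1 holds 1 Cdx core, beginning 177 bases before the start, and Gcnt3 holds 1 posterior Hox core, beginning 152 bases before it. Of 33469 promoters of the same length, 33.1% held the GC box, 12.7% CATAAA, 14.2% TATAAA and 4.57% CAATAAA. Entries were found for 76 of the 93 genes, with 82 promoters, of which 52.4% held the GC box, 7.32% CATAAA, 6.10% TATAAA and 3.66% CAATAAA. All 9 genes on the distal side had an entry, and 6 of these promoters held the GC box and 3 (Gcnt1, B4galnt3 and St6galnac1) held CATAAA. On the proximal side 7 of the 11 genes had an entry, with 8 promoters, of which 3 held the GC box and none held CATAAA. A match describes letters in this window and is not evidence of binding.

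The enzymes that start O-glycans were close in level between the libraries. Of 16 polypeptide GalNAc transferase genes, 10 were measured, and none was at least 2-fold apart, beside 7.62% of all measured genes. Galnt12, of the same family, was not among the genes kept. Their median log2 ratio was 0.04 and they ranged from -0.22 to 0.87. Galnt6 had the highest level, with 180 and 186 FPKM, although it shares its locus in the table with other genes. By mean level it was followed by Galntl4, an older symbol of Galnt18, with 60.0 and 111 FPKM, and then by Galnt7 (86.7 and 80.9 FPKM) and Galnt4 (76.2 and 80.9 FPKM). Galntl4 was the furthest apart of the class. Summed over the class, the level was 593 and 663 FPKM. Galnt6 made up 30.3% and 28.0% of these sums, and Galntl4 10.1% and 16.7%. The authors' deposited table called none of these genes.

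Enzymes that make and branch the cores differed in opposite directions. C1galt1, which adds galactose to make core 1, stood at 47.8 and 62.5 FPKM. Its dedicated chaperone C1galt1c1, known as Cosmc, stood at 43.2 and 50.5 FPKM, so both parts of core 1 synthesis were less than 2-fold apart. B3gnt6, which makes core 3 by adding GlcNAc to the same first sugar, stood at 37.5 and 12.9 FPKM, a 2.90-fold proximal excess. Within the proximal library C1galt1 was thus 1.28 times the level of B3gnt6, and within the distal library 4.85 times. Such ratios within a library do not depend on how the libraries were scaled against each other.

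Branching showed the same contrast in its leading gene. Gcnt3, on chromosome 8 at 74470611 to 74474086 in build rn4, encodes the mucin-type enzyme that makes core 2 and core 4 branches. It stood at 78.5 and 17.0 FPKM, a 4.62-fold proximal excess. The log2 fold change of Gcnt3 in the authors' deposited table was -2.21 with an implied standard error of 0.33, an error that comes from their model of 1 library against 1 and does not measure variation between rats. Gcnt1, the more widely expressed core 2 enzyme, differed the other way, with 3.46 and 8.68 FPKM (2.51-fold, distal higher). With the upper quartiles of the libraries set equal, the log2 ratio of Gcnt1 was 0.97, under the 2-fold line. Gcnt3 stood at 22.7 times the level of Gcnt1 in the proximal library and 1.96 times in the distal library. Gcnt2, which makes the I branch, was listed at 0.157 and 0 FPKM. The class summed to 211 and 152 FPKM. Without Gcnt3 the sums were 132 and 135 FPKM.

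Enzymes that extend chains with GlcNAc were the class furthest towards the distal library. All 6 measured members had a log2 ratio above 0, with a median of 1.40, and 3 of them lay on the distal side, beside 3.71% of all measured genes. The 6 include B3gnt1 by its symbol, although its row matches an enzyme of another kind, as given below. B3gnt7, on chromosome 9 at 85069241 to 85073192 of rn4, extends sulfated chains of keratan type. It stood at 6.43 and 499 FPKM, and in the distal library it was the highest of all 93 genes. The log2 fold change of B3gnt7 in the authors' deposited table was 6.28 with an implied standard error of 0.47. Of the summed level of the 93 genes it made up 0.331% at the proximal and 17.4% at the distal end.

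B3gnt3, which extends core 1, stood at 20.3 and 75.8 FPKM (3.73-fold, distal higher). B3gnt8, which is known to work with B3gnt2 on branched chains, stood at 0.548 and 6.36 FPKM (11.6-fold). Its lower value lies near the level of a few reads for a gene of olfactory receptor length. B3gnt2 itself, a general polylactosamine enzyme, stood at 11.0 and 19.1 FPKM. B3gnt5, which starts this kind of extension on glycolipids, lay just under the 2-fold line with 11.9 and 23.7 FPKM. B3gnt1 stood at 5.77 and 7.25 FPKM. RefSeq lists B3gnt1 as an older symbol of both B3gnt2 and B4gat1, and the row lies on chromosome 1 and spans 2223 bases, as B4gat1 does, a glucuronyltransferase of dystroglycan and not a chain-extending enzyme. Without B3gnt1, an alternative chosen after the data were seen, the median log2 ratio of the other 5 genes was 1.85. With B3gnt1 kept in, the class summed to 56.2 and 631 FPKM. Without B3gnt7 the sums were 49.8 and 132 FPKM, a 2.66-fold distal excess. The leading member was B3gnt3 in the proximal library, with 36.1% of the sum, and B3gnt7 in the distal library, with 79.0%.

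**Figure D2:**
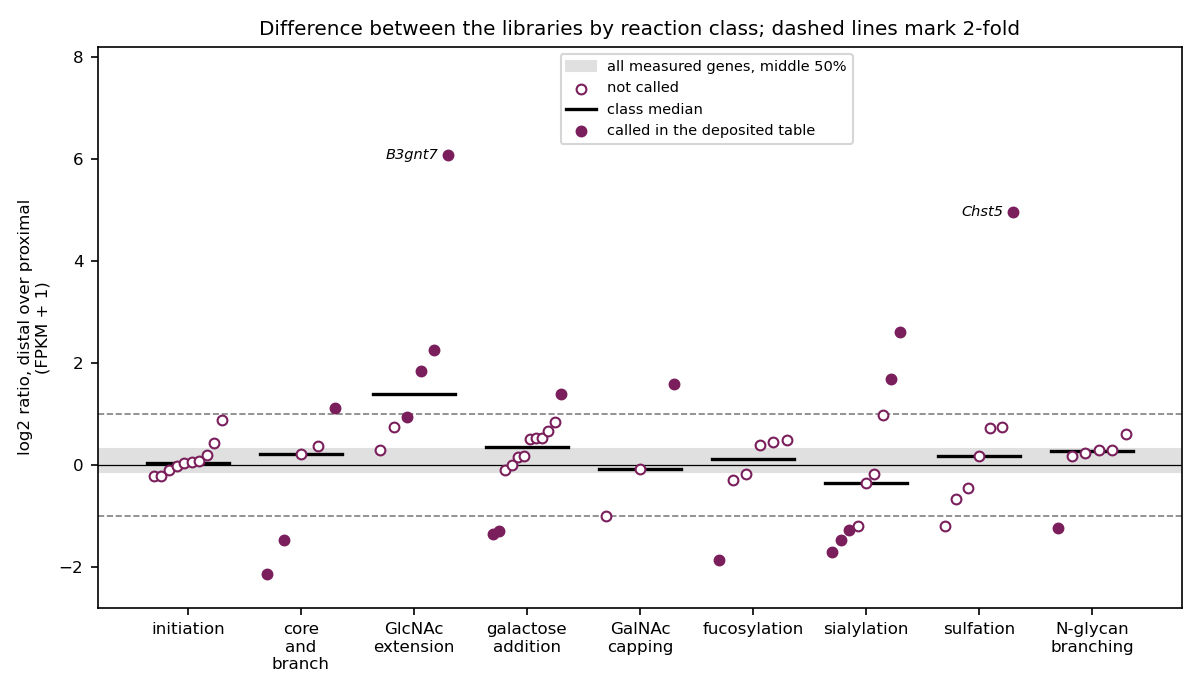
Log2 ratio of distal over proximal (FPKM + 1) for each measured gene, by reaction class, with bars for class medians, filled points for genes called in the authors' deposited table and a grey band for the middle 50% of all measured genes (-0.14 to 0.30). Every point of the initiation class lies between the dashed 2-fold lines, and the GlcNAc extension class, with B3gnt1 included by symbol, has the highest median, 1.40.

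Galactosyltransferases were mostly within 2-fold, with 1 of 12 measured genes on the distal and 2 on the proximal side. Among all measured genes these shares were 3.71% and 3.91%. The class median log2 ratio was 0.35. B3galt5, which makes type 1 chains on GlcNAc, led the class with 151 and 171 FPKM, 53.4% and 48.5% of its summed level. Next was B4galt3, which makes type 2 chains, with 38.7 and 62.0 FPKM. B4galt4, which is known to prefer GlcNAc that carries a 6-sulfate, stood at 5.28 and 15.4 FPKM (2.92-fold, distal higher). B4galt1, the enzyme best known from N-glycans and lactose synthesis, was low, with 2.52 and 0.437 FPKM.

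Several members act mainly on glycolipids, and these differed in both directions. Of those given here, only B4galt6 and St3gal5 were at least 2-fold apart on the FPKM + 1 scale, both on the proximal side. B4galt6, a lactosylceramide synthase, stood at 7.70 and 2.39 FPKM (3.21-fold, proximal higher), while B4galt5, with the same known activity, stood at 8.79 and 16.4 FPKM. St3gal5, which makes the ganglioside GM3, stood at 2.67 and 0.520 FPKM (5.13-fold, proximal higher). B4galnt1, the next enzyme on the ganglioside path, stood at 2.52 and 0.766 FPKM, just under the 2-fold line on the FPKM + 1 scale, and shares its locus with another gene. B3galt4, which adds galactose after it, stood at 11.7 and 17.2 FPKM. The globoside enzyme A4galt stood at 8.48 and 12.5 FPKM.

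Of the 3 GalNAc capping genes in the table, B4galnt3, which adds GalNAc to GlcNAc, had a 6.31-fold distal excess, at 0.608 and 3.84 FPKM. B4galnt4, which makes the same linkage, was higher in level than B4galnt3 in both libraries and stood at 8.43 and 7.88 FPKM. B4galnt2 was not among the genes kept.

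Fucosyltransferases were within 2-fold except for Fut9. Fut2, the secretor enzyme that makes the H antigen of mucosal surfaces, led the class with 126 and 165 FPKM. Fut1, its paralogue with the same product, lies 29.2 kb away on chromosome 1 in rn4 and stood at 41.1 and 58.5 FPKM. Fut4, which adds fucose in the Lewis x linkage, stood at 61.3 and 54.3 FPKM, and Fut8, the core fucosyltransferase of N-glycans, at 34.8 and 47.6 FPKM. Fut9, a Lewis x enzyme as well, stood at 22.4 and 5.41 FPKM, a 4.15-fold proximal excess. The log2 fold change of Fut9 in the authors' deposited table was -2.05 with an implied standard error of 0.43. Fut2 was 5.62 times the level of Fut9 in the proximal and 30.5 times in the distal library.

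Sialyltransferases were the class with the most genes at least 2-fold apart, 6 of 9 measured, 2 of them on the distal and 4 on the proximal side. Among all measured genes 7.62% were at least 2-fold apart. St3gal5 and St3gal6, 2 of the 4 on the proximal side, were low and fell under 2-fold with a pseudocount of 5 FPKM. St6galnac1, which adds sialic acid to the first GalNAc and makes the sialyl-Tn antigen, stood at 107 and 344 FPKM (3.22-fold, distal higher). St6galnac2, which acts mainly on core 1, stood at 34.6 and 9.91 FPKM (3.49-fold, proximal higher). These genes are neighbours on chromosome 10 of rn4, St6galnac2 at 106793126 to 106811346 and St6galnac1 at 106871548 to 106881619, with 60.2 kb between them, and they differed in opposite directions. St6galnac1 was 3.08 times the level of St6galnac2 in the proximal and 34.7 times in the distal library. In the authors' deposited table the log2 fold changes of St6galnac1 and St6galnac2 were 1.69 and -1.81, with implied standard errors of 0.35 and 0.37.

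Among the enzymes that add sialic acid to galactose, St3gal1, the main enzyme for core 1, stood at 126 and 45.0 FPKM (2.81-fold, proximal higher). It was the leading sialyltransferase of the proximal library, with 41.9% of the class sum, whereas St6galnac1 made up 76.9% of the distal sum. St3gal2, which acts on core 1 and on gangliosides, stood at 1.05 and 11.5 FPKM (11.0-fold, distal higher). St3gal3, which acts on type 1 chains, lay just under the 2-fold line with 13.3 and 27.3 FPKM. St3gal6, which acts on type 2 chains, stood at 7.88 and 2.85 FPKM, and St3gal4, with a similar role, at 5.73 and 4.97 FPKM. St6gal1, which caps N-glycans in many tissues, was near the lower limit with 1.10 and 0.633 FPKM. None of the 6 St8sia genes, which make polysialic and disialic chains, was measured. The class summed to 301 and 447 FPKM, and to 195 and 103 FPKM without St6galnac1, so the direction of the sum rested on that gene.

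The sulfotransferases among the genes kept, which do not include Chst2 and Gal3st2, differed chiefly through Chst5. Chst5, on chromosome 19 at 41830419 to 41850686 of rn4, adds sulfate to the 6 position of GlcNAc and is the intestinal form of this activity. It stood at 0.530 and 46.5 FPKM. The log2 fold change of Chst5 in the authors' deposited table was 6.46 with an implied standard error of 0.62. Its proximal value is close to the level of 3 reads for a gene of olfactory receptor length, so the fold is poorly fixed. Chst4, which carries out the same reaction and is best known from lymph node vessels, stood at 23.2 and 26.4 FPKM. Of the summed level of Chst4 and Chst5, Chst4 made up 97.8% at the proximal and 36.2% at the distal end. Summed sulfotransferase level was 38.6 and 87.4 FPKM, and without Chst5 it was 38.0 and 40.9 FPKM.

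The other sulfotransferases were low. Chst1, which sulfates galactose in keratan chains, stood at 3.91 and 1.13 FPKM (3.47-fold, proximal higher), and the authors' deposited table did not call it. Chst9 and Chst8, which sulfate GalNAc at the 4 position, stood at 4.56 and 8.15 FPKM and at 0.646 and 1.75 FPKM. Chst12, a chondroitin sulfotransferase, stood at 1.75 and 0.729 FPKM, and Gal3st4, which sulfates galactose at the 3 position of core 1, at 1.47 and 0.812 FPKM. The remaining 8, among them Chst3, Chst7, Chst11, Chst13, Chst14 and Chst15 of chondroitin and dermatan sulfate, were not measured.

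N-glycan branching genes were within 2-fold in 5 of 6 measured cases, while among all measured genes 7.62% were at least 2-fold apart. Mgat4b, with 41.6 and 63.8 FPKM, and Mgat4a, with 21.9 and 8.77 FPKM, encode enzymes that make the same branch. Mgat4a had a 2.50-fold proximal excess, so that Mgat4b stood at 1.90 times its level in the proximal library and at 7.27 times in the distal library. Mgat1, which starts complex N-glycans, stood at 39.4 and 46.7 FPKM, and Mgat2, Mgat3 and Mgat5 were at most 1.24-fold apart.

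**Figure D3:**
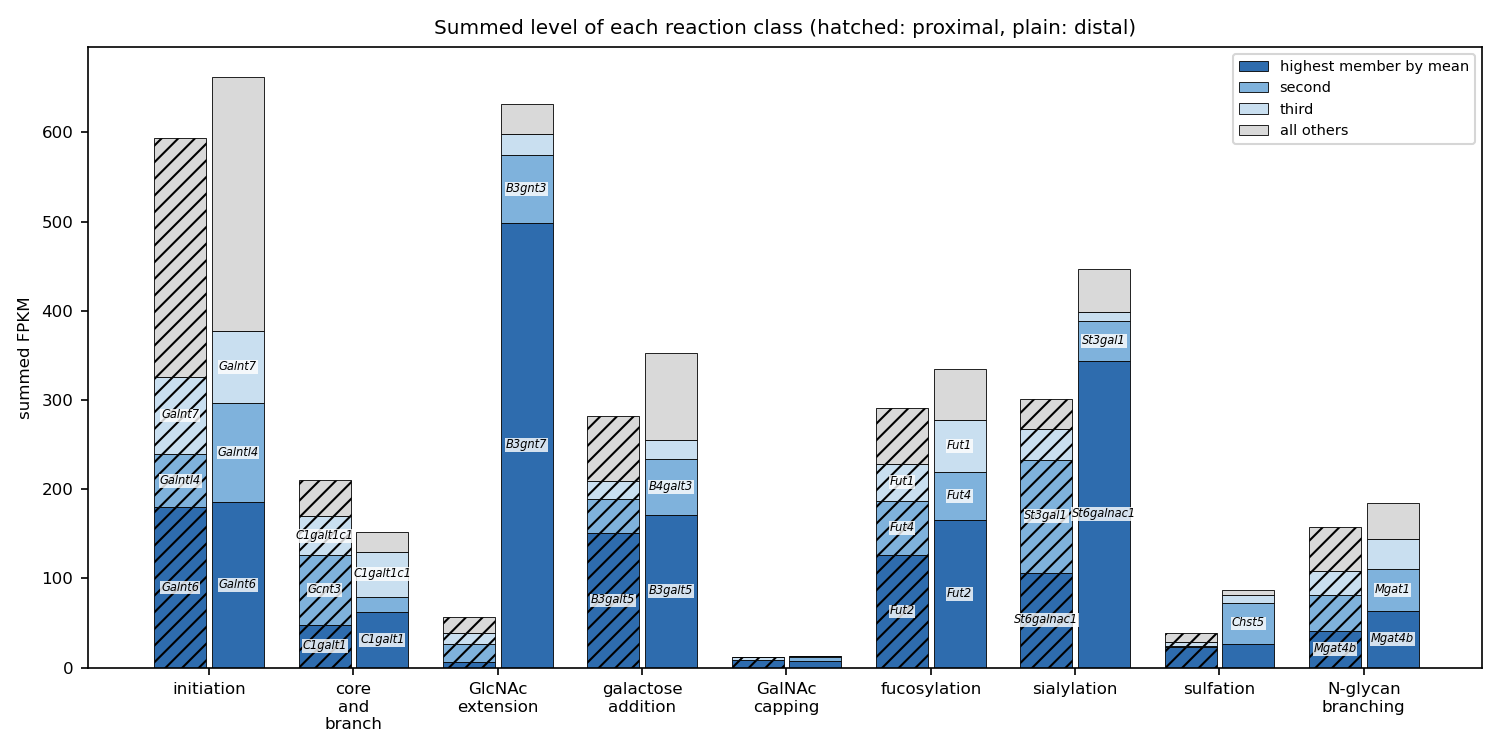
Summed FPKM of each reaction class in the proximal (hatched) and distal (plain) library, split into the 3 members with the highest mean level and all others. The distal GlcNAc extension sum of 631 FPKM against 56.2 FPKM is mostly B3gnt7, and St6galnac1 fills 76.9% of the distal sialylation bar.

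The balance between enzymes within a library was examined for 8 pairs of members that share a step or a substrate, and for the 2 synthases of the sulfate donor, chosen with their values known. The first gene of the pair exceeded the second in 1 library and not in the other for B3gnt3 and B3gnt7, for Chst4 and Chst5, and for St6galnac1 and St3gal1. St6galnac1 stood at 0.844 times the level of St3gal1 in the proximal and at 7.63 times in the distal library. B3gnt7 stood at 0.317 times the level of B3gnt3 in the proximal and at 6.59 times in the distal library. In the other 6 pairs the same gene was higher in both libraries.

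**Figure D4:**
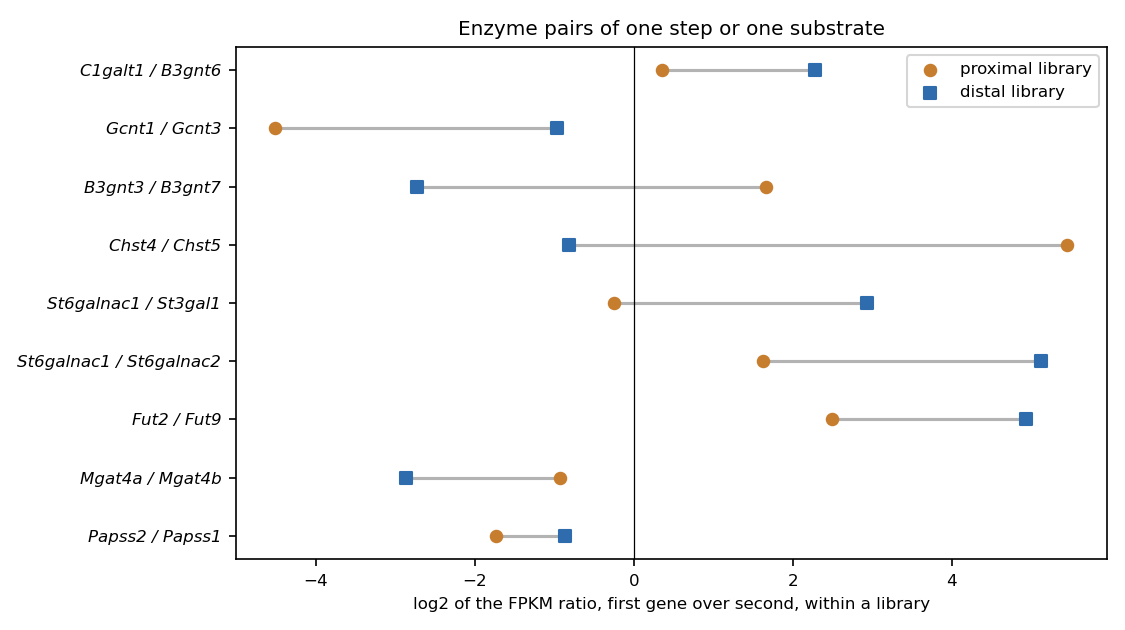
Log2 of the FPKM ratio of the first gene over the second within each library, for 9 pairs of enzymes, with circles for the proximal and squares for the distal library. The line crosses 0 for 3 pairs, B3gnt3 with B3gnt7, Chst4 with Chst5 and St6galnac1 with St3gal1.

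Of 35 measured genes listed for the supply of sugars and sulfate, 4 lay on the distal and 2 on the proximal side. Over all measured genes these shares were 3.71% and 3.91%. Of the sialic acid genes 2 of 6 measured lay on the distal and none on the proximal side, and the median log2 ratio was 0.72. All 6 had a ratio above 0 as deposited, but Slc35a1 fell below 0 when the median of all genes was set to 0, and Slc35a1 and Nanp with equal upper quartiles, where the list median was 0.55. Nans, the synthase of sialic acid, stood at 123 and 292 FPKM, Gne, the first enzyme of its path, at 213 and 340 FPKM, and Cmas, which activates it, at 134 and 229 FPKM. The 2 genes on the distal side were Nans and the acetylesterase Siae (12.0 and 28.7 FPKM), which removes acetyl groups rather than supplying sialic acid. The transporter that brings activated sialic acid into the Golgi, Slc35a1, was level at 87.3 and 88.1 FPKM.

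Sulfate genes were split, with 1 of 9 measured on the distal and 2 on the proximal side. Papss2, a synthase of the sulfate donor PAPS, stood at 27.3 and 56.6 FPKM, and its paralogue Papss1 at 90.6 and 103 FPKM. The sulfate transporter Slc26a2, known from chondrocytes and colon, stood at 81.1 and 30.5 FPKM (2.66-fold, proximal higher), and the other gene on the proximal side was the sulfate transporter Slc13a1, at 24.5 and 0.911 FPKM. Slc35b2, which carries PAPS into the Golgi, stood at 66.5 and 87.7 FPKM. None of the 6 fucose supply genes was at least 2-fold apart. Of the 14 genes of UDP-sugar supply 1 was, the hexosamine pathway gene Gfpt2 (1.46 and 6.23 FPKM).

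The crypt label was checked against markers of the cells it names and of others. Beside the counts below, 3.71% of all measured genes lay on the distal and 3.91% on the proximal side. Epithelial markers, 9 in the table and all measured, summed to 19620 and 12686 FPKM. Of these 9, Car1, a carbonic anhydrase of colonocytes, lay on the proximal side (11730 and 1781 FPKM) and none lay on the distal side. The other 8 had a log2 ratio above 0 as deposited, so the direction of the sum rested on Car1. With equal upper quartiles 6 of the 9 were above 0. Epcam, a surface protein of epithelial cells, stood at 1490 and 1991 FPKM. Of 15 goblet cell markers listed, Muc2, Muc4, Clca3 and Galnt12 were not among the genes kept. The other 11 summed to 4044 and 8279 FPKM, with 4 on the distal side and 1, Spink4, on the proximal side. The 4 were Clca1 (417 and 1992 FPKM), Tff3 (438 and 1618 FPKM), Fcgbp (185 and 820 FPKM) and Bcas1 (33.9 and 105 FPKM). Of the 11, the authors' deposited table called only Tff3 and Bcas1. Agr2, Spdef and Muc13, of the same list, were at most 1.17-fold apart. Leukocyte markers, 13 in the table, summed to 53.0 and 18.6 FPKM, with 4 of 10 measured on the proximal and none on the distal side, and the highest of them was Ptprc at 8.97 and 1.44 FPKM. Stromal markers were at most 13.6 FPKM, with Dcn and Lum listed at 0 in both libraries, and summed to 16.6 and 11.2 FPKM over 9 genes. Of the 3 measured, Des (0.0398 and 2.91 FPKM) lay on the distal side and Pdgfrb (2.50 and 0.410 FPKM) on the proximal side. The authors' deposited table called both. Endothelial markers summed to 8.83 and 24.5 FPKM over 5 genes, most of it Esam (6.54 and 22.9 FPKM), with Cdh5 at 0.0696 and 0 FPKM. Esam, 1 of 2 measured, lay on the distal side. Enteroendocrine markers summed to 382 and 240 FPKM, with 1 of 7 on the distal and 3 on the proximal side. The 5 genes on the proximal side whose higher value was under 10 FPKM, B4galt1, B4galt6, St3gal5, St3gal6 and Chst1, lay in the range of the leukocyte markers. So did B4galnt3, B3gnt8 and Gcnt1 on the distal side, with higher values of 3.84, 6.36 and 8.68 FPKM, so this range is not particular to the proximal side. The part of leukocytes in the 5 proximal differences, and of goblet cells in the distal ones, was not tested.

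**Figure D5:**
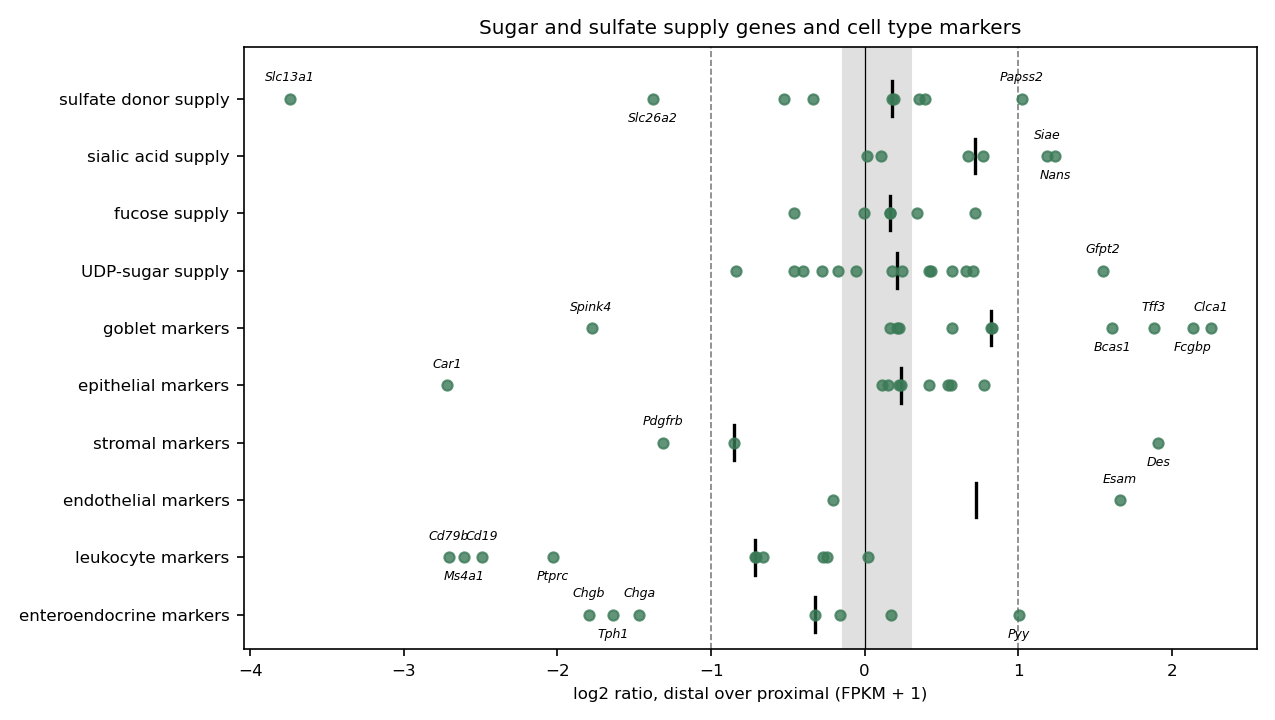
Log2 ratio of distal over proximal (FPKM + 1) for measured genes of sugar and sulfate supply and for cell type markers, with black bars for list medians, dashed lines at 2-fold and a grey band for the middle 50% of all measured genes. The sialic acid genes have a median of 0.72, and the median of the leukocyte markers is -0.71.

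Of measured genes beside the members at least 2-fold apart, 4 of 48 (8.33%) were themselves at least 2-fold apart, against 7.62% of all measured genes. Of these 4, 2 are the members St6galnac1 and St6galnac2, each counted beside the other, and only Jak3 and Spink4 are not members. Within 100 kb of the 9 genes on the distal side lay 31 measured genes, of which none lay on the distal and 2 on the proximal side, namely Jak3 beside B3gnt3 and St6galnac2 beside St6galnac1. Around the 11 genes on the proximal side lay 17, with 1 on the same side, Spink4 beside B4galt1, and 1 on the other, St6galnac1. A gene close to 2 members is counted once for each.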

How the data were processed

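RNA of 2 pooled libraries was analysed, and the 5 chromatin libraries of the series were not used. Per the submitters' processing notes, CASAVA, TopHat2 and the build rn4 go with the RNA samples. The sources used here do not name the program that made the table. The deposited values were read as the authors' FPKM, because they are not whole and differ in sum between libraries (412814 and 463340). These traits do not show that the values were scaled to transcript length. The log2 fold change, test statistic, p-value and q-value are those of the authors' deposited table. Its p-value equals the normal tail of its statistic to within 2.76e-06, and the implied standard error is the log2 fold change over that statistic. Of 16492 rows, 16468 genes were kept, leaving out rows marked low in data or failed and 1 repeat. The sources used here give no total read numbers. A single read was taken as about 0.142 FPKM (proximal) and 0.113 FPKM (distal), from olfactory receptor genes.

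Ratios and counts were computed with Python 3.11.15 and pandas 2.3.3 (pseudocount 1 FPKM, minimum 1 FPKM), after a check on simulated data, with no test of the regions. Named genes were those at least 2-fold apart or just outside, those the authors called, and the 2 highest of each class; others are given to complete a class. Genes, classes, pairs and lists were chosen with earlier results of these data known. Of the 93 symbols, 90 were current in RefSeq (GRCr8). Alternatives were other pseudocounts, minimums, folds and scalings, and leaving out genes that share a locus.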

Additional observations from a re-analysis of the deposited data

How the results depend on the processing

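No paired analysis was possible because each region has 1 library. The 20 genes at least 2-fold apart kept their direction under both other pseudocounts and both other scalings, and 11 stayed at least 2-fold apart under all of these. The other 9 were under 2-fold with a pseudocount of 5 FPKM, and Gcnt1 also with equal upper quartiles. At 1.5-fold the counts were 18 distal and 13 proximal, and at 4-fold 4 and 1. A minimum of 5 FPKM, which 16 of the 20 genes reached, left 8 on each side. With a pseudocount of 5 FPKM 5 genes remained on the proximal side, and the GlcNAc extension median was 0.90, against 0.84 with no minimum and 1.85 without B3gnt1, a choice made after seeing the data. With no minimum, which adds genes near 0, the medians of fucosylation and sulfation were -0.092 and -0.058. With the distal library rescaled to a median log2 ratio of 0 the initiation median was -0.056. With equal upper quartiles it was -0.12 and that of fucosylation -0.062. Rescaling to equal upper quartiles brought the median over all genes from 0.09 to -0.06. Without genes sharing a locus, which leaves 2 genes, the GalNAc capping median was 0.75. Among 35 named genes, 17 of 70 values with another pseudocount moved by at least the implied standard error, and none of 70 with another scaling did. A minimum, or leaving out other genes, cannot alter a single gene's ratio. With 1 library per region, depth limits chiefly the folds of B3gnt8, B4galnt3, B4galt1, St3gal5 and Chst5. Their lower values lie near the level of 3 reads for a gene of olfactory receptor length. In a longer transcript the same FPKM stands for more reads, and their own read numbers are not known.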

Other observations

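Enzymes of related chains outside the symbol pattern were looked up after the values above were seen. Abo, the histo-blood group transferase that acts on the H antigen made by Fut1 and Fut2, stood at 296 and 719 FPKM with the proximal value first, a 2.43-fold distal excess. In the authors' deposited table Abo had a log2 fold change of 1.28 with an implied standard error of 0.35, and it was called. Its paralogue Abo2 stood at 16.2 and 11.5 FPKM. B3galnt2 stood at 7.67 and 7.84 FPKM, and shares its locus with another gene. A row spelled fut10 in lower case, which the pattern does not take, was listed at 0 and 1.20 FPKM.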
